A study of Saccharomyces cerevisiae with 14 samples.

Results

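Sef1 binding was examined at 4 sites in front of genes that bring substrates into the mitochondrion or prepare them for it: MPC3, DLD1, YAT1 and PET9. A site was defined as the peaks of the 7 deposited lists that lay within 500 bp of a given center, and the 4 centers were 977042 on chromosome VII for MPC3, 147899 on chromosome IV for DLD1, 190037 on chromosome I for YAT1 and 164256 on chromosome II for PET9. They are 4 of the 1066 sites that remained when the 3812 peaks of all lists were merged, and they hold 24 of these peaks. The sites were chosen by their enrichment, which was higher in glycerol than in glucose, so enrichments, ranks and the presence of a peak are given below as a description and were not tested.

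Sef1 is a zinc cluster transcription factor, a family of fungal regulators that recognizes CGG triplets. The factor had been tagged at its own locus with TAP (tandem affinity purification tag) and precipitated from cells grown for 4.5 h at 30°C in YPGly, in which the carbon source is glycerol and growth is respiratory, or in YPD, in which it is glucose and growth is fermentative. There were 3 YPGly repeats and 4 YPD repeats, described as biological, each with a peak list. The lists are attached to samples titled as input for the YPD repeats and YPGly repeat 1, and to samples titled as ChIP for YPGly repeats 2 and 3. They were taken here as the calls of each ChIP library against its input for the repeat that the title names. All were of the strain W303ScSef1TAPNB1-1, a MATa haploid of the W303 background that carries SEF1-TAP::FRT besides the markers his3-11,15, trp1-1 and ura3-1 and also ade2-1, can1-100 and a mutant leu2 allele. The YPGly cultures were fixed at 0.4 OD600/ml, with 500 OD600 of cells per sample, and the YPD cultures at 1.0 OD600/ml, with 1500 OD600. By the paper, each YPD sample was split into portions of 500 OD600 for ChIP, and the DNA of the portions was pooled. Medium, cell density, total amount of cells and this pooling therefore cannot be told apart. No untagged strain was analysed here, and YPGly repeat 3 was sequenced apart from the others, as read pairs. The lists held 373 to 771 peaks, with a median enrichment of 1.47 to 2.32, and no read counts. Sequencing depth and counting error are therefore unknown, and errors are given as SDs between repeats.

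On a non-fermentable carbon source, yeast cells draw energy from respiration, and metabolites have to cross the mitochondrial membranes. Mpc3 is the subunit that pairs with Mpc1 in the pyruvate carrier of respiring cells, and Dld1 is the D-lactate dehydrogenase of the inner membrane, which makes pyruvate and passes electrons to cytochrome c. Yat1 is a carnitine acetyltransferase at the outer mitochondrial membrane and belongs to the shuttle that carries acetyl groups, and Pet9 is the major ADP/ATP carrier, which brings ADP into the matrix and lets ATP out.

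The sequence around each center is shown because the factor is known to recognize CGG triplets. The 250-bp windows below are the plus strand, written 5′ to 3′, of the RefSeq S288C genome (assembly R64), which is not the W303 genome of the cells, and every CGG or CCG triplet is in capitals. They cover chrVII:976917-977166 for MPC3, chrIV:147774-148023 for DLD1, chrI:189912-190161 for YAT1 and chrII:164131-164380 for PET9.
MPC3: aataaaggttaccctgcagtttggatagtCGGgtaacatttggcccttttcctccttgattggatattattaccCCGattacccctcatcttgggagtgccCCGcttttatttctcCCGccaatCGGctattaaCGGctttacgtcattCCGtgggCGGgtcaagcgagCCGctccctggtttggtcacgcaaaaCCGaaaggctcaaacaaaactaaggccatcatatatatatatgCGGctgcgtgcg
DLD1: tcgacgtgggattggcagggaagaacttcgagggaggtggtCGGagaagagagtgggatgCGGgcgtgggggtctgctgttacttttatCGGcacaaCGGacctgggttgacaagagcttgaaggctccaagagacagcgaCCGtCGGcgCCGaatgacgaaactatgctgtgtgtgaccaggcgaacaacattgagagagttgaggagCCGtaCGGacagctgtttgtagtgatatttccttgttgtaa
YAT1: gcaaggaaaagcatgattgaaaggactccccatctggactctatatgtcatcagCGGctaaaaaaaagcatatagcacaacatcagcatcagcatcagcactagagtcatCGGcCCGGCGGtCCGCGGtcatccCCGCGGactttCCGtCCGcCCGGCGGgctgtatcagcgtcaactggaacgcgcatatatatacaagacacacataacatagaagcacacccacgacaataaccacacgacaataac
PET9: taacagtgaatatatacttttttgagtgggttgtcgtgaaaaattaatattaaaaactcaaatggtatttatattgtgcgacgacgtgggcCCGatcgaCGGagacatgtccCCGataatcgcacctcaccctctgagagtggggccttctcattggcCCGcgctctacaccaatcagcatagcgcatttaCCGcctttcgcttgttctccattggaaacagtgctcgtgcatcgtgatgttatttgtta
The pattern CCGN5CGG, in which N is any base and which reads the same on both strands, was present in 3 of the 4 windows. The study drew the Sef1 motif from the peaks most enriched in YPGly in these same libraries. The sites described here ranked from 37 to 156 in the YPGly lists and are taken to be among those peaks, so a match is not independent of the data. The matches to CCGN5CGG, with the triplets in capitals, are shown on the plus strand because peak positions are set against them below.
MPC3, chrVII:977033-977043: CCGccaatCGG
YAT1, chrI:190061-190071: CCGcCCGGCGG
PET9, chrII:164222-164232: CCGatcgaCGG
Of the 645 windows around all sites with calls in at least 3 lists of a medium, 61 (9.46%) held the pattern. The DLD1 window had no exact match, and within it 3 stretches differed from the pattern at 1 base. With 1 mismatch allowed, 325 windows (50.4%) held a match, among them all 4 of the windows shown. The stretch of DLD1 shown next is a direct repeat, CGGN5CGG on the plus strand, and was printed because it is where DLD1 has a pair of triplets at the same spacing.
DLD1, chrIV:147863-147873: CGGcacaaCGG
CGGN5CGG, searched on both strands, was also found in the YAT1 window and in 62 (9.61%) of the 645 windows.

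The middle of the match lay 4 bp from the center of the MPC3 site and 29 bp from the centers of the YAT1 and PET9 sites. The 3 matches stood 293 bp upstream of the ATG of MPC3, 122 bp upstream of that of YAT1 and 225 bp upstream of that of PET9. The windows differed in how many triplets they held, with 14 at YAT1, 11 at MPC3, 9 at DLD1 and 5 at PET9, against a median of 6 over the 645 windows. As many or more were found in 7.29% of windows for YAT1, 17.8% for MPC3, 30.9% for DLD1 and 63.3% for PET9. At YAT1, 13 of the 14 triplets were within 50 bp of the center, as were 8 of 11 at MPC3, 5 of 9 at DLD1 and 4 of 5 at PET9. The GC content was 54% at DLD1, 50.8% at YAT1, 49.2% at MPC3 and 45.2% at PET9, and the median of all windows was 42%. CCAAT, the box known to be bound by the Hap2/3/4/5 activator of respiratory genes, was searched on both strands after the sequences had been seen. It was found 3 times at PET9, 2 times at MPC3, where 1 copy fills the spacer of the CCGN5CGG match, 1 time at DLD1 and not at YAT1. It was present in 232 (36.0%) of the 645 windows.

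All 4 centers lay in front of the gene for which the site is named, between 156 and 310 bp upstream of its ATG, and they differed in the gene on the other side. At MPC3 (YGR243W, plus strand, ATG at 977336), the center was 294 bp upstream. The divergent neighbor was YAP1802 (YGR241C), which encodes a clathrin assembly protein and whose ATG was 461 bp from the center. At DLD1 (YDL174C, minus strand, ATG at 147589), the center was 310 bp upstream and nearly midway to the divergent PAR32 (YDL173W), a gene of ammonium transport control with its ATG at 292 bp. At these 2 sites a peak cannot be given to 1 gene of the pair by position.

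At YAT1 (YAR035W, plus strand, ATG at 190193), the center was 156 bp upstream and there was no divergent gene. Upstream of it came a Ty2 long terminal repeat, 280 bp from the center (chrI:189426-189757), and then MST28, which runs in the same direction and ends at 188811. At PET9 (YBL030C, minus strand, ATG at 163997), the center was 259 bp upstream. The next gene, YBL029C-A, lies on the same strand and ends 232 bp from the center, and the first divergent gene was YBL029W, whose ATG was 1878 bp away. The genes and peaks around each center are drawn in the map of the 4 sites.

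**Figure D1:**
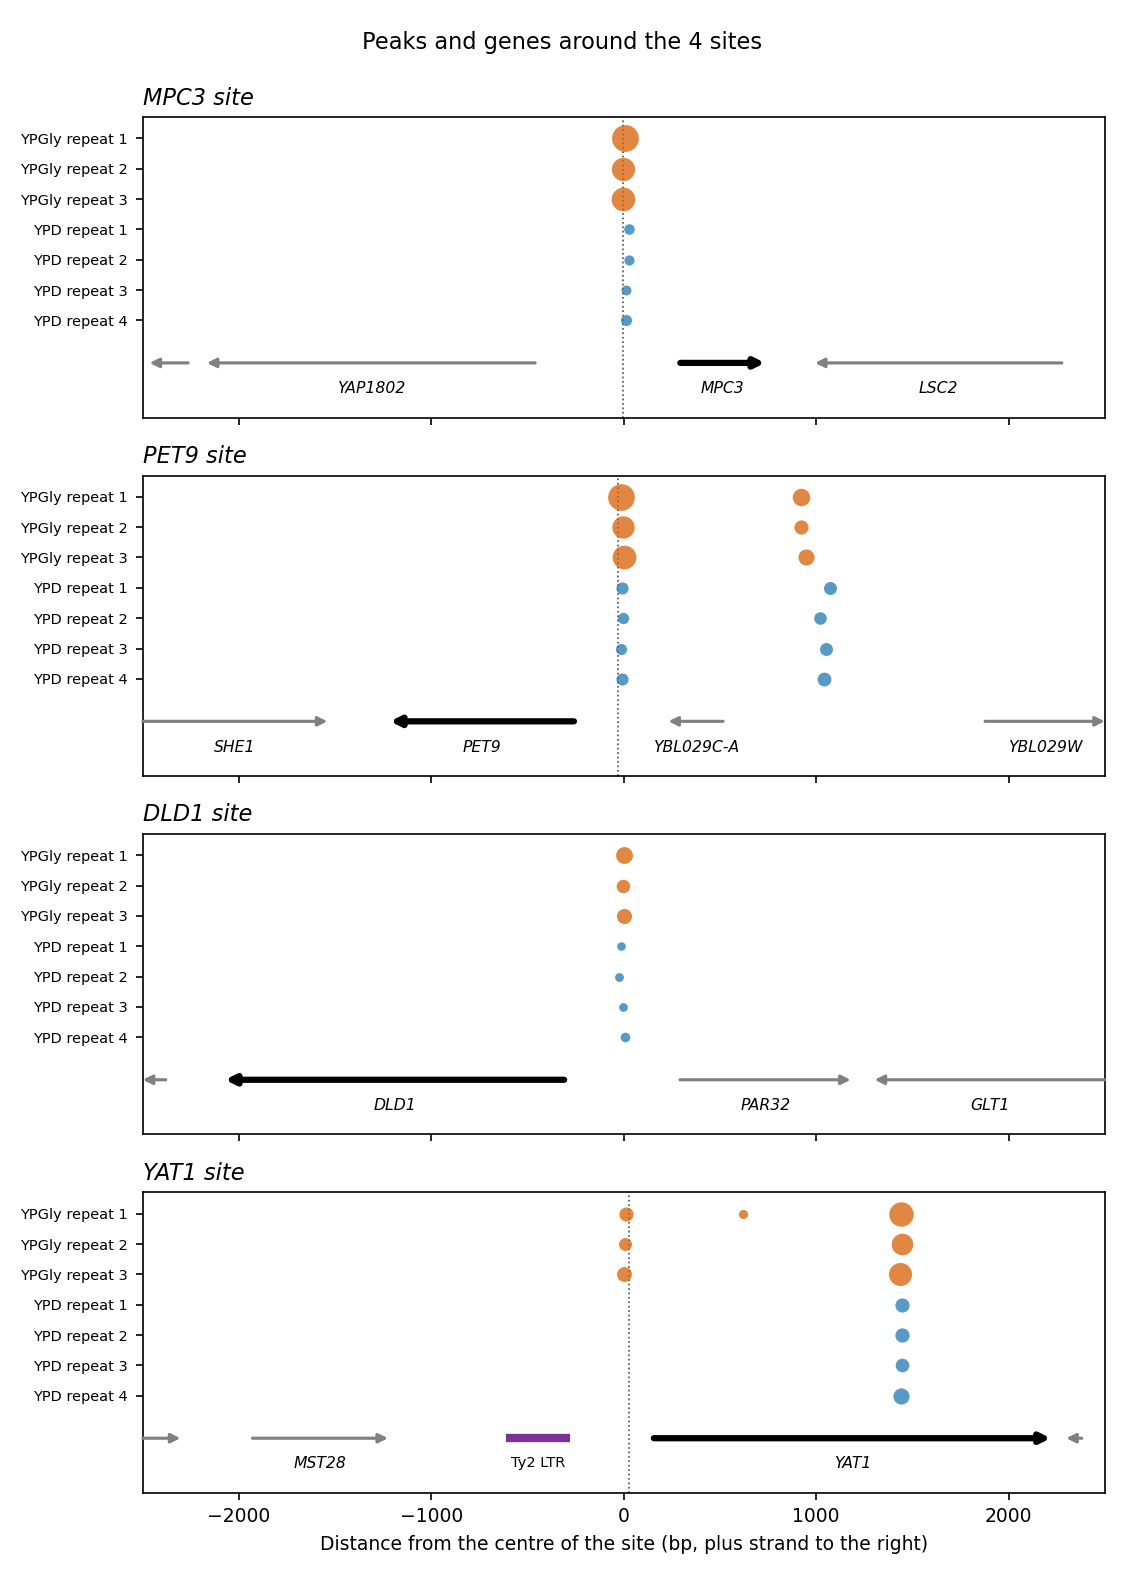
Peaks of each list (rows) by distance in bp from the center of the MPC3, PET9, DLD1 and YAT1 sites, with YPGly in orange above YPD in blue and the area of a point growing with its enrichment. Arrows are genes in their direction of transcription (black for the named gene), the purple bar is a Ty2 long terminal repeat and dotted lines mark CCGN5CGG matches 4 or 29 bp from the center; each list has 1 peak at each of the 3 upper sites, and the YAT1 promoter has none in YPD.

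Every list with a peak at a site had exactly 1 within 500 bp of its center. These peaks lay at most 26 bp from the center, and the nearest one outside the limit was a peak of YPGly repeat 1 that lay 618 bp from the YAT1 center and had an enrichment of 1.44. Peaks were called in all 7 lists at MPC3, PET9 and DLD1, as at 203 of the 1066 merged sites. At YAT1 they were called in the 3 YPGly lists and in no YPD list, as at 59 of the 1066 sites (5.53%), or 17.7% of the 333 sites with a peak in every YPGly list. Since the choice of sites used this contrast, nothing is read from these shares.

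For pyruvate entry, the MPC3 peak had an enrichment, the fold of ChIP over input, of 15.6, 11.4 and 11.7 in YPGly repeats 1 to 3. In YPD repeats 1 to 4, it was 1.96, 1.80, 1.71 and 2.19. The 3 YPGly values all lay above the 4 YPD values, and the lowest of their lower bounds was still 4.72 times the highest YPD value. The mean was 12.9 ± 2.32 in YPGly (SD, n = 3) and 1.92 ± 0.212 in YPD (SD, n = 4), a ratio of 6.72 ± 1.42 with the SDs of both means carried over. By enrichment, the peak ranked 41 of 520, 37 of 373 and 43 of 395 in the YPGly lists, and 292 of 528, 204 of 771, 318 of 615 and 203 of 610 in the YPD lists. It thus belonged to the top 10.9% of every YPGly list and stood between 26.5 and 55.3% from the top in YPD. The false discovery rate given by the authors' caller was at most 0.00154 in YPGly and at most 0.0137 in YPD.

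For lactate oxidation, the DLD1 peak had enrichments of 5.54, 3.41 and 4.34 in YPGly repeats 1 to 3. They were 1.24, 1.33, 1.30 and 1.60 in YPD repeats 1 to 4. The groups did not overlap, and with 4.43 ± 1.07 in YPGly (SD, n = 3) and 1.37 ± 0.157 in YPD (SD, n = 4), the ratio of 3.24 ± 0.866 was the smallest of the 3 that could be formed. In YPGly the peak ranked 109 of 520, 124 of 373 and 109 of 395. In YPD it ranked 507 of 528, 558 of 771, 562 of 615 and 418 of 610, which is 68.5 to 96.0% from the top. DLD1 therefore had the weakest of the peaks called in YPD and, in YPD repeats 1 and 3, stood among the last peaks of the list.

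For the acetyl carnitine shuttle, the YAT1 promoter peak had enrichments of 3.77, 3.11 and 4.23 in YPGly repeats 1 to 3 and was not called in YPD. Its mean was 3.70 ± 0.563 (SD, n = 3), with ranks of 156 of 520, 133 of 373 and 114 of 395. A missing peak is not an enrichment of 0, so no fold was formed. The lowest enrichments called anywhere in the YPD lists were 0.988 to 1.03, and with each list's lowest value in place of the missing one, the ratio would be 3.67. These lowest values are not known to be a limit of detection. An uncalled site could have a higher enrichment and thus a lower ratio, so 3.67 is not comparable to the ratios of the other sites. DLD1 had a higher enrichment than YAT1 in each of the 3 YPGly lists, by little in repeat 3 (4.34 at DLD1 and 4.23 at YAT1).

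For ADP and ATP exchange, the PET9 peak had enrichments of 15.4, 10.4 and 11.9 in YPGly repeats 1 to 3. In YPD repeats 1 to 4, they were 2.71, 2.31, 2.21 and 2.68. The YPGly values were again all above the YPD values, with means of 12.5 ± 2.57 in YPGly (SD, n = 3) and 2.48 ± 0.252 in YPD (SD, n = 4) and a ratio of 5.06 ± 1.16. The peak ranked 42 of 520, 43 of 373 and 41 of 395 in YPGly. It ranked 162 of 528, 117 of 771, 164 of 615 and 142 of 610 in YPD, which is 15.2 to 30.7% from the top. Its FDR was at most 0.00154 in YPGly and at most 0.00498 in YPD.

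**Figure D2:**
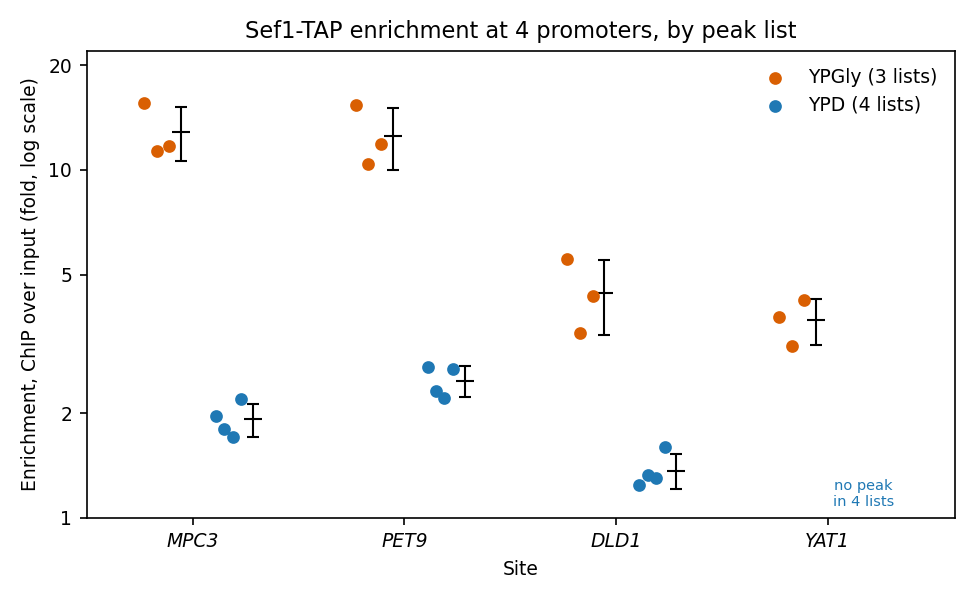
Enrichment of ChIP over input (fold, log axis) of the peak at each site, 1 point per list, with YPGly in orange left of YPD in blue and the mean ± SD as a black bar. The YPGly points of MPC3 and PET9 lie between 10.4 and 15.6 and those of DLD1 and YAT1 between 3.11 and 5.54, all above the YPD points of the same site, and YAT1 has no YPD point.

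The 4 sites fell into a stronger and a weaker pair in YPGly. The lowest value of MPC3 or PET9 was 10.4 and the highest of DLD1 or YAT1 was 5.54. MPC3 and PET9 themselves did not differ beyond the spread of their repeats in YPGly, where MPC3 had the higher value in repeats 1 and 2 and PET9 in repeat 3. In all 4 YPD lists the order was PET9, MPC3 and DLD1. The repeats varied together in YPGly, since all 4 sites had their lowest value in repeat 2, and MPC3, PET9 and DLD1 had their highest in repeat 1. This was not particular to the 4 sites, as the median enrichment of the whole list was 2.32 in repeat 1, 2.13 in repeat 2 and 2.21 in repeat 3. Without repeat 3, the separately sequenced library, the YPGly to YPD ratio was 7.02 at MPC3, 5.20 at PET9 and 3.27 at DLD1.

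Since libraries may differ in scale, the sites were also set against the other peaks of each list. Over the 203 sites called in all lists, the median ratio of the YPGly mean to the YPD mean was 1.33, with a range of 0.305 to 29.3, and 158 sites had a higher mean in YPGly and 45 a lower one. The ratios of MPC3, PET9 and DLD1 were number 7, 12 and 20 in descending order. With each enrichment divided by the median of its list, the ratios were 5.28 at MPC3, 3.98 at PET9 and 2.52 at DLD1. Among the 203 shared sites, MPC3 ranked 35 to 41 in YPGly and 127 to 148 in YPD, PET9 ranked 39 to 41 in YPGly and 92 to 105 in YPD, and DLD1 ranked 87 to 100 in YPGly and 182 to 198 in YPD. Every YPGly rank of these 3 sites was nearer the top than every YPD rank, as it was for 63 of the 203 shared sites (31%). Their YPGly enrichments were all above their YPD enrichments, as at 105 of the 203 sites (51.7%). The choice of sites used this contrast too, and nothing is read from these counts.

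**Figure D3:**
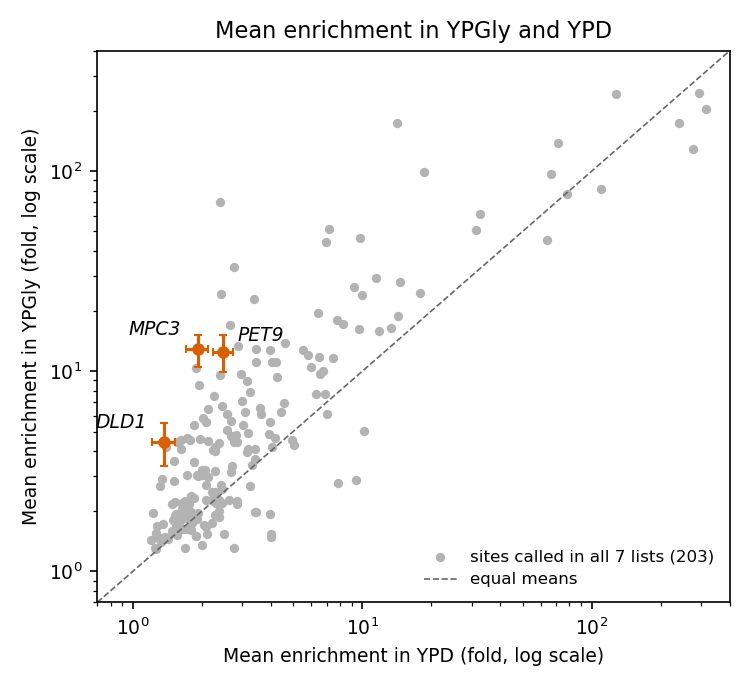
Mean enrichment in YPGly (vertical, log axis) against mean enrichment in YPD (horizontal, log axis) for the 203 sites called in all 7 lists (gray), with MPC3, PET9 and DLD1 in orange with SD bars. All 3 lie above the dashed line of equal means, at ratios of 6.72, 5.06 and 3.24, and the median ratio of all gray points is 1.33.

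The mean ranks in the whole lists give another order. They were 114 ± 8.66 in YPGly and 511 ± 67.0 in YPD at DLD1, a shift of 397 places, 40.3 ± 3.06 in YPGly and 254 ± 59.6 in YPD at MPC3, a shift of 214 places, and 42.0 ± 1.00 in YPGly and 146 ± 21.9 in YPD at PET9, a shift of 104 places (SD, n = 3 and 4). DLD1 thus had the widest gap in rank and the smallest ratio. Among the 203 shared sites the shifts were 100.3 places at DLD1, 98.2 at MPC3 and 59.0 at PET9, so the size of a shift depended on which peaks were ranked.

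The position of a peak within its site had not been used to choose the sites as a contrast, and it was compared between the media by a two-sided exact permutation test. The test was made at 225 sites with a peak in all YPGly lists and at least 3 YPD lists. At the 203 sites called in all lists, which include MPC3, PET9 and DLD1, there were 35 splits of the lists and the smallest p was 0.0286, and at the 22 sites with 3 YPD lists there were 20 splits and the smallest p was 0.1. The p-values were adjusted over the 225 sites by the Benjamini-Hochberg method. At MPC3 the peak lay at 977046, 977038 and 977037 in YPGly repeats 1 to 3 and at 977067, 977068, 977052 and 977053 in YPD repeats 1 to 4. The positions did not overlap, with YPGly peaks 19.7 bp farther from the MPC3 ATG on average, a difference that did not pass the test after adjustment (exact permutation p = 0.0286, adjusted p = 0.184). The YPGly peaks stood on average 3.00 bp, and the YPD peaks 22 bp, from the middle of the CCGN5CGG match at 977038. Positions did not overlap at 67 of the 225 sites (29.8%), and 58 sites had a difference at least as large as that of MPC3. The median size over the 225 sites was 9 bp.

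At PET9 the YPGly peaks at 164242, 164250 and 164256 overlapped the YPD peaks at 164248, 164253, 164240 and 164245 (difference 2.83 bp, exact permutation p = 0.629, adjusted p = 0.852). They stood on average 22.3 bp in YPGly and 19.5 bp in YPD from the middle of the match. At DLD1 the YPGly peaks at 147901, 147897 and 147899 overlapped the YPD peaks, which were spread over 147876 to 147906 (difference 8.00 bp, exact permutation p = 0.371, adjusted p = 0.633). The YAT1 promoter peaks lay at 190051, 190043 and 190037 in YPGly and had no YPD peak to be compared with. No site of the 225 passed an adjusted p of 0.05 in the exact permutation test, and 35 (15.6%), all among those called in all lists, had an unadjusted p under it. The exact permutation p of a site could not fall below 0.0286, and at that p the adjusted value was 0.184. A single site could therefore not pass by its own positions, and the lack of calls does not show that positions were the same.

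Other peaks within 3000 bp put the sites in context. The coding sequence of YAT1 held a stronger site than its promoter, centered 1436 bp from the promoter site (chrI position 191473, between the gene's ends at 190193 and 192256). This stronger site also lay upstream of the next gene, SWH1 (plus strand, ATG at 192619), within the 2000 bp used below to assign genes. It was called in all 7 lists, with enrichments of 9.61 to 12.6 in YPGly and 3.49 to 5.06 in YPD and means of 11.1 ± 1.52 in YPGly (SD, n = 3) and 4.04 ± 0.695 in YPD (SD, n = 4). The ratio was 2.75, yet its mean rank among the shared sites was 45.7 in YPGly and 54.2 in YPD, closer together than those of MPC3, PET9 or DLD1. Its 250-bp window had no CCGN5CGG. YPD lists thus had peaks within the YAT1 gene although none at its promoter.

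Near PET9, a site centered at 165254, 998 bp from the PET9 center, lay between YBL029C-A and YBL029W and was called in all lists. Its enrichment averaged 4.91 ± 1.10 in YPGly (SD, n = 3) and 3.17 ± 0.279 in YPD (SD, n = 4), with mean ranks among the shared sites of 81.0 in YPGly and 71.5 in YPD. The YPGly peaks spanned 165177 to 165201 and the YPD peaks 165277 to 165328, a difference of -118 bp that did not pass the test after adjustment (exact permutation p = 0.0286, adjusted p = 0.184). The YPGly peaks of this neighbor were on its PET9 side, and those of the PET9 site itself were not set apart. No other peak lay within 3000 bp of the DLD1 center, and near MPC3 there was 1 more, called in YPGly repeat 1 alone, 2527 bp away with an enrichment of 1.40.

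The sites were then read against 54 genes in 7 lists of related function: pyruvate entry, lactate, the carnitine shuttle, ADP/ATP and phosphate carriers, other mitochondrial carriers, glycerol and cytosolic NADH entry, and ethanol and acetate entry. A gene was counted when the center of a site called in at least 3 lists of a medium lay from 2000 bp upstream to 200 bp downstream of its ATG. This held for 14 of the 54 genes (25.9%), the 4 chosen ones included, and for 750 of all 6002 protein-coding genes (12.5%). Without the 4, it held for 10 of 50. By list, it held for 3 of 5 genes of ADP/ATP and phosphate carriers, 2 of 5 each of lactate and of glycerol and NADH entry, 1 of 5 of the carnitine shuttle, 4 of 20 of the other carriers, 1 of 6 of ethanol and acetate entry and 1 of 8 of pyruvate entry. MPC1 and MPC2, the other subunits of the pyruvate carrier, and the genes of the pyruvate dehydrogenase complex on the list had no such site, nor had CAT2 and YAT2, the other carnitine acetyltransferases.

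The 14 genes had 16 sites. Peaks were called in YPGly in at least 3 lists, and in fewer than 3 lists of YPD, at 7 of them, in at least 3 lists of both media at 8, and the other way around at 1. Over all 645 sites, 333 had a peak in every YPGly list, 537 in at least 3 YPD lists and 225 in both. The 16 sites include the 4 chosen ones, so nothing is read from this split. Of the 7 sites called in all lists, 4 had every YPGly rank nearer the top among the 203 shared sites and 3 had every YPD rank nearer the top, and over all 203 sites these shares were 31% and 35%. The 4 with nearer YPGly ranks include MPC3, PET9 and DLD1, which had been chosen by this contrast, so nothing is read from the counts over 7 sites. Of the other 4 sites, 1 had every YPGly rank nearer the top and 3 had every YPD rank nearer the top. Their ratios were 0.488 to 12.0 with a median of 1.11, against a median of 1.33 over the 203 sites.

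Among genes that take up or oxidize respiratory substrates, several sites had few or no YPD peaks. JEN1, the lactate and pyruvate permease of the plasma membrane, had a site 608 bp upstream with an enrichment of 21.0 ± 3.28 in YPGly (SD, n = 3), against a single YPD list with 1.66, and a weaker one 1234 bp upstream with 2.37 ± 0.488 in YPGly and no YPD peak. STL1, the glycerol proton symporter, had 21.4 ± 2.82 in YPGly (SD, n = 3) and, in 2 YPD lists, 1.83 and 2.37. SFC1, the succinate-fumarate carrier, had 5.83 ± 0.399 in YPGly and no YPD peak, and AAC1, a minor ADP/ATP carrier, had 1.97 ± 0.286 in YPGly and none in YPD. ODC1, an oxodicarboxylate carrier, had 1.57 ± 0.0184 in YPGly and none in YPD. The sites of AAC1 and ODC1 also stood in front of FET3 and COX11, their neighbors. JEN1 and DLD1, which take up and oxidize lactate, thus both had peaks in every YPGly list, the JEN1 peak being the stronger. The other genes of the lactate list, CYB2, DLD2 and DLD3, had no site. Nor had GUT1, GUT2 and NDE2 of the glycerol and NADH list, or ADH2, ALD4, ACS1, ACH1 and ADY2 of the ethanol and acetate list.

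Sites called in all lists went in both directions. ALD6, the cytosolic acetaldehyde dehydrogenase, had an enrichment of 33.3 ± 2.99 in YPGly (SD, n = 3) and 2.77 ± 0.327 in YPD (SD, n = 4), a ratio of 12.0, and this site lay in front of YPL062W as well. NDE1, the external NADH dehydrogenase, had the highest enrichments of the 54 genes, and its means of 76.6 ± 11.8 in YPGly and 77.9 ± 13.6 in YPD differed by less than the spread of the repeats. ORT1, the ornithine carrier, had a lower mean in YPGly, 1.93 ± 0.144, than in YPD, 3.96 ± 0.694. PIC2, a phosphate and copper carrier, had 16.4 ± 4.10 in YPGly and 13.4 ± 2.39 in YPD at the site 620 bp upstream, and at a site 289 bp upstream 6.02 ± 2.95 in YPGly and 3.97 ± 0.543 in 3 YPD lists. NDE1, ORT1 and, at its distal site, PIC2 were the 3 whose ranks were nearer the top in YPD. OAC1, the oxaloacetate carrier, had the weakest site, with 1.31 in 2 YPGly lists and 1.23 ± 0.0832 in YPD.

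**Figure D4:**
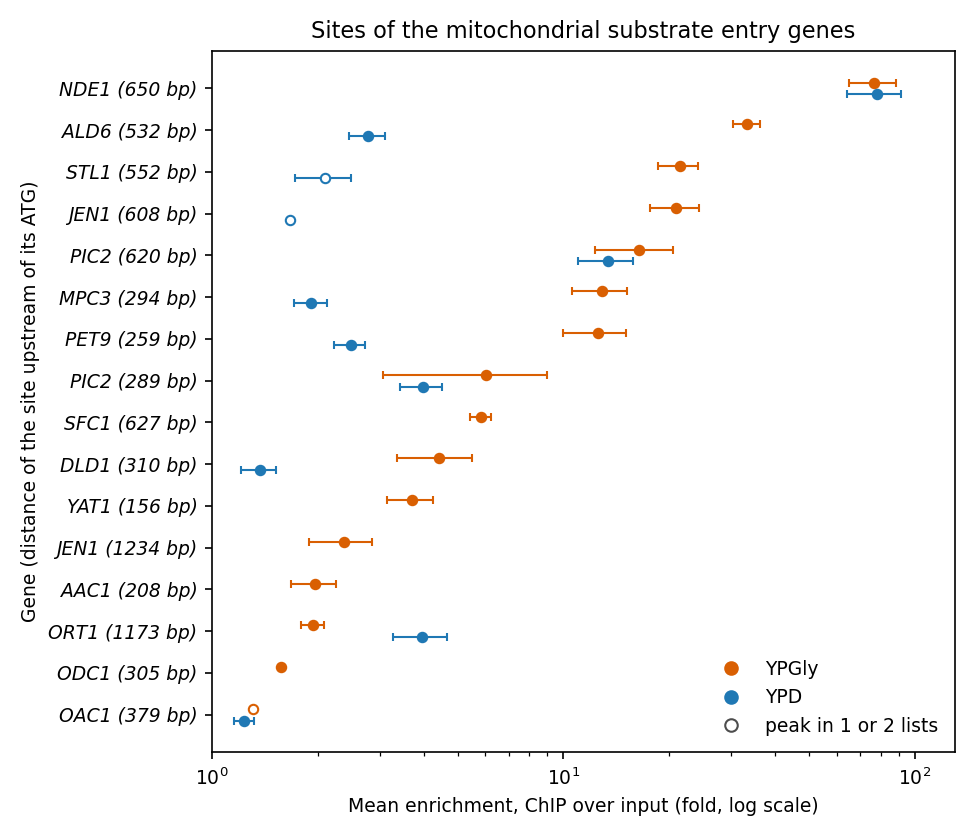
Mean enrichment (fold, log axis) with SD bars at the 16 sites of the 14 listed genes, with YPGly in orange above YPD in blue, and the distance in bp from the site to the ATG beside each gene. Open points are means over 1 or 2 lists, and a missing point means no peak; NDE1 has 76.6 in YPGly and 77.9 in YPD, ALD6 has 33.3 in YPGly and 2.77 in YPD, and MPC3 and PET9 stand at 12.9 and 12.5 in YPGly.

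The sites most like each of the 4 were taken by the mean absolute difference of ranks. For MPC3, over 203 sites and 7 lists, they were those assigned to MNN4, a gene of cell wall mannan phosphorylation (10.4 places), to PAC1, HRK1 and YOR268C (16.6) and to CWP1, a cell wall mannoprotein, and YKL096C-B (18.1). For DLD1 they were those of QDR1, a drug exporter (7.43), and YOR342C (12.9) and a site at chrIV position 722610 with no gene assigned (13.3). For PET9 they were those between TRM13 and MDH2, which encodes a cytosolic malate dehydrogenase (10.4), of TIP1, a cell wall mannoprotein (10.9), and of GAC1, a regulatory subunit in glycogen synthesis (11.3). For YAT1, over the 59 sites without YPD peaks and the 3 YPGly lists, they were those of PYC1, a pyruvate carboxylase (1.33), HSP12 and MDJ1 (3.00), and SHR3 and PRR2 (3.33). None of these 12 windows held CCGN5CGG, which was present in 9.46% of the 645 windows, and nothing is read from so few windows.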

How the data were processed

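Sef1-TAP ChIP-seq lists from 3 YPGly and 4 YPD repeats were used, out of 14 samples. The authors trimmed the reads and mapped them to the S288C genome (R64-2-1), and called peaks in each library against its input, by a caller not given in the sources used here. The submitters' processing notes name Trimmomatic 0.36, Bowtie2 2.3.3, FastQC 0.11.8 and DiffBind 2.10.0. Repeats were not pooled. The deposited enrichment is a fold ratio of ChIP over input, of which the maximum-likelihood estimate was used and the lower bound served as an alternative. The deposited score is the authors' signal of a peak, and the deposited FDR is the caller's q-value, given in the interval lists as -log10. None was normalized again. Input libraries and reads were not used here, and depth is unknown.

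Intervals overlapping by at least 1 bp were merged. Sites needed calls in 3 or more lists of a medium. Peaks were ranked by enrichment in each list. Genes were assigned from the RefSeq annotation of the same assembly. Peak positions were compared by two-sided exact permutation tests with Benjamini-Hochberg adjustment (threshold 0.05). These p-values give the share of splits of the lists with a difference in mean position at least as large as the observed one. The 4 sites, the gene lists and the tests were chosen with earlier results of these data known. The genes named beside the 4 sites flanked a site, belonged to a list or were at the 3 most similar sites. Repeat numbers did not pair the lists. Alternatives covered the ranked value, the peaks ranked, the overlap, the calls required, an enrichment of at least 2, the distance to the ATG, the window, 1 mismatch and each repeat left out in turn. The scripts were tested on simulated data. Scripts ran under Python 3.11.15 (scipy 1.17.1, pandas 2.3.3 and numpy 2.4.6), and plots were drawn with matplotlib 3.10.9.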

Additional observations from a re-analysis of the deposited data

How the results depend on the processing

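The YPGly to YPD ratios of MPC3, PET9 and DLD1 moved by less than the spread between repeats with the lower bound or the highest peak within 500 bp, and with each repeat left out they were 6.03 to 7.12 at MPC3, 4.49 to 5.49 at PET9 and 2.83 to 3.61 at DLD1. Rank shifts, of 214, 104 and 397 places in this order, kept their direction but were 83.2, 50.2 and 264.5 when ranked by score, 98.2, 59.0 and 100.3 among the shared sites and 152, 76.2 and 211.5 with lists held to the shortest, and 193 to 231, 98.3 to 114 and 380 to 428 with each repeat left out. Shared sites nearer the top in YPGly numbered 63, or 31 with an enrichment of at least 2 and 66 to 73 with each repeat left out. Sites with peaks in all YPGly lists and no YPD list numbered 59, or 96 with lists held to the shortest and 59 to 82 with each repeat left out. Of the 54 genes, 14 had a site, or 8 within 500 bp of the ATG (14.8% of them, against 5.96% of all genes), and 14 to 16 with each repeat left out. All 4 chosen genes kept a site under each of these settings. They are thus part of the 14 and of the 8 genes, and nothing is read from these shares.

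The position difference was 2.83 bp at PET9 and -0.5 bp without YPGly repeat 3, and with each repeat left out it was -22.5 to -17 bp at MPC3 (adjusted p 0.296 to 0.448), -0.5 to 6.5 bp at PET9 and 3 to 13 bp at DLD1. In an alternative chosen after seeing the data, repeats 1 to 3 were paired by number as a replicate block, and the difference was -22 bp at MPC3 (exact p = 0.25, adjusted p = 0.546), 2.33 bp at PET9 and 13 bp at DLD1. With 3 pairs, the smallest p is 0.25, so this fit could give no call. Same-numbered lists did not deviate together, with correlations of -0.33, -0.284 and -0.00398 across sites. Without a YPD repeat the smallest p was 0.1 and without a YPGly repeat 0.0667 at these sites, so leaving out repeats could give no call either. Depth is unknown.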
